A study of Mus musculus with 16 samples.

Results

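Usp2, the gene of a ubiquitin-specific protease on mouse chromosome 9, was the nearest gene that the authors gave to 3 separate intervals of BMAL1 binding in mouse liver. The 3 intervals were found by the gene name in a deposited table that merges the overlapping peaks of 8 BMAL1 libraries, and they are 3 of its 7043 intervals. They hold 12 of the 9986 peaks in the 8 lists. The members were therefore chosen by having a peak, and their calls are described here without a test.

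The libraries came from chromatin immunoprecipitation with a BMAL1 antibody and sequencing of liver from C57bl6 mice aged 8 to 16 weeks, with liver of 3 to 4 mice pooled in each. There was 1 library for each of male misaligned, female misaligned, male control and female control mice at ZT12 and at ZT0, hours counted from lights-on in a cycle of 12 h light and 12 h dark. All groups, controls included, ate a high-fat diet (42% of calories) from the start of the paradigm, and the misalignment schedule is not given in the sources used here. No group had a second library, so no difference between groups could be set against replicate error, and a pool cannot show the spread between mice. Of the 16 samples, the 8 IgG libraries were not used here. Peak lists hold no expression values, so the tissue could not be checked against marker levels.

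BMAL1 and its partner CLOCK activate circadian genes by binding E-boxes, short DNA elements whose canonical letters are CACGTG. USP2 removes ubiquitin from other proteins, which can protect some of them from breakdown. Among the proteins it is reported to act on are the clock proteins PER1, CRY1 and BMAL1 itself. Its messenger RNA cycles with the clock in mouse liver, and long and short isoforms with different amino ends arise from separate promoters.

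The 3 sites lay side by side over 3290 bp within the gene, all coordinates being GRCm38. The first, chr9:44083320-44083859, is called here the upstream site, the second, chr9:44084463-44085118, the promoter site, and the third, chr9:44085520-44086609, the downstream site. The names refer to a transcription start of Usp2 at base 44084920, taken from a RefSeq promoter table of GRCm38.p6. That start is internal to the gene, which RefSeq places on chromosome 9 from 44067021 to 44095627, so the start lies 17899 bp from the left end. The upstream site ended at -1061 bp from this start, the promoter site spanned it, and the downstream site began 600 bp after it. The gaps between neighbouring sites were 603 and 401 bp.

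The authors' distances were -8879, -7678 and -6404 bp, all to a start at base 44092468, which is 7548 bp beyond the RefSeq start. Their annotation nevertheless put the promoter site in the class promoter-TSS, and the upstream and downstream sites in introns. The upstream site was given as intron 3 of 13 and the downstream site as intron 1 of 11. The authors' detailed annotation gave intron 2 of 12 for both, so the intron numbers depend on the annotation used. A long noncoding RNA gene of RefSeq, Gm39325, runs from 44066325 to 44084990 and also covers the upstream site and most of the promoter site.

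The sequence around the RefSeq start is shown because the summits of the promoter site fall in it. It covers chr9:44084670-44084969 on the plus strand, 250 bases before the start to 50 after it, and the capitals mark the 67 bases between the outermost summits of the 4 libraries with a peak there. The promoter window of Klf11 (chr12:24651121-24651420, plus strand), a Kruppel-like transcription factor gene called in the same 6 libraries as Usp2, is shown beside it, with capitals on its CACGTG. Both are RefSeq sequences of GRCm38.p6, 5′ to 3′.
Usp2: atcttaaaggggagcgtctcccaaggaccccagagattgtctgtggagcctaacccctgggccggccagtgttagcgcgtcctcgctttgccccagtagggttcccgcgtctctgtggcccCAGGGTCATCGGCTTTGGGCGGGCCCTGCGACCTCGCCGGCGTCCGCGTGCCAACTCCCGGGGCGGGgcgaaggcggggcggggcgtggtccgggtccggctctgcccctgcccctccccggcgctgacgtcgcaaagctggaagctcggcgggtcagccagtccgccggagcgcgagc
Klf11: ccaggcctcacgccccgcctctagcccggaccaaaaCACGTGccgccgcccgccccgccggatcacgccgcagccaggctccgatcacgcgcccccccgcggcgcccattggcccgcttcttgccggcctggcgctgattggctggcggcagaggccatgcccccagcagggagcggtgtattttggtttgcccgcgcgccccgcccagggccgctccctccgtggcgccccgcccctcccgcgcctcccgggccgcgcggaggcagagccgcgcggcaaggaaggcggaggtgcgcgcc

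The Usp2 window held no CACGTG, and none of 4 other motifs searched on both strands: the E-box variant CACGTT, the D-box TTATGTAA, and TAGGTCA and TGGGTCA, letters of elements bound by ROR receptors. CACGTG and CACGTT differ in their last letter. CACGTG was in 7.15% of 32851 RefSeq promoter windows of this length and in 23.2% of the 2322 windows that overlap an interval. It was in 37.2% of the 215 windows that overlap an interval called in at least 4 libraries. For CACGTT the same shares were 4.68%, 9.13% and 12.1%. For TTATGTAA they were 0.938%, 0.818% and 2.33%, for TAGGTCA 2.61%, 1.98% and 0.465%, and for TGGGTCA 3.98%, 3.53% and 2.33%. In the Klf11 window the 1 CACGTG lay a median of 14 bp from the 6 summits (range 7.5 to 38.5 bp). Klf11 was chosen after its sequence was seen, and the Usp2 window was not alone in lacking CACGTG: the windows of Ppara and Usp28, overlapped by intervals called in 6 and in 7 libraries, held none either. The Usp2 window was 71.7% G and C with 33 CpG dinucleotides, against medians of 52.7% and 7 over all windows, and 64.3% and 25 over windows that overlap an interval. The sequences under the upstream and downstream sites were not analysed here, nor were the parts of the promoter site outside the window.

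**Figure D1:**
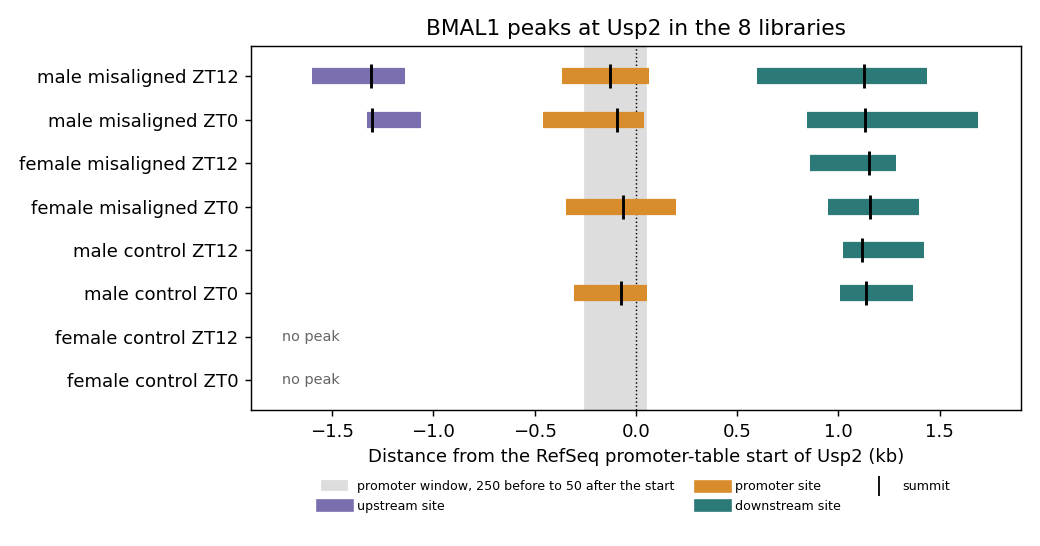
BMAL1 peaks at Usp2 in each library, by distance in kb from the RefSeq start (0, dotted line). Bars are the authors' peaks, coloured by site, black ticks are summits, and the grey band is the promoter window. Summits of one site lie within 66 bp of each other, and neither female control library has a peak.

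The summits of each site lay within 66 bp of each other in the libraries that had a peak. An interval merges overlapping peaks, so some closeness is built in. At the downstream site the 6 summits lay between 1117 and 1155 bp after the start, a range of 38 bp. At the promoter site the 4 summits lay between -129 and -63 bp from the start, a range of 66 bp, and at the upstream site the 2 summits were 5 bp apart. The median range was 92.5 bp over the 48 intervals called in 6 libraries, 72 bp over the 150 called in 4, and 54.5 bp over 856 of those called in 2, counting only intervals with 1 peak per library. A range as small or smaller was found at 18.8% of these intervals for the downstream site, 46% for the promoter site and 6.31% for the upstream site. The median summits of neighbouring sites were 1226 and 1215 bp apart. At least 3 intervals were given to 290 of the 5527 genes in the table (5.25%). At 21 of the 5527 genes (0.38%), Usp2 included, 3 intervals lay within 4 kb. That limit and number sit close to the 3 Usp2 sites over 3290 bp, so this share cannot show how unusual they are.

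The downstream site was called in 6 libraries: the 4 misaligned ones and both male control ones. The promoter site was called in 4, which were male misaligned ZT12, male misaligned ZT0, female misaligned ZT0 and male control ZT0. The upstream site was called in male misaligned ZT12 and male misaligned ZT0. Of all intervals, 1.58% were called in at least 6 libraries, 4.81% in at least 4 and 21.5% in at least 2. The promoter site was thus called in the libraries with the 4 longest lists (5542, 1864, 1330 and 373 peaks) and the upstream site in those with the 2 longest. The downstream site departs from that order, since it was called in female misaligned ZT12 (221 peaks) and not in female control ZT0 (225 peaks). The set of 6 libraries, lacking both female controls, was shared by 19 of the 48 intervals called in exactly 6, and the set of 4 at the promoter site by 71 of the 150 called in exactly 4.

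Set against how much each library called, Usp2 had all 3 sites in male misaligned ZT12, where 78.7% of all intervals were called, and in male misaligned ZT0, where 26.4% were. It had 1 in female misaligned ZT12 (3.08%) and 2 in female misaligned ZT0 (18.8%). It had 1 in male control ZT12 (4.06%) and 2 in male control ZT0 (5.21%). It had none in female control ZT12 (1.96%) or female control ZT0 (3.17%).

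Summit fragments, the number of sequenced fragments over the summit, were recovered from the authors' fold enrichment and -log10 p together with the local background. Strength is given here as the excess of summit fragments over the local background, in multiples of the lowest background found in the same list. The lowest background is used in place of a read depth, which is unknown, and no value here shows how closely it follows depth. Its 95% intervals are exact Poisson intervals on the fragments and cover counting error only. The background at all 12 Usp2 peaks was below 5 times the lowest of its list, the multiple taken here to mark high background. The lowest background at ZT12 and ZT0 was 4.25 and 4.32 in male misaligned, 6.14 and 5.06 in female misaligned, and 4.39 and 6.16 in male control lists. Ratios of strength between libraries depend on these values. Both Usp2 peaks of male control ZT0 stood at the lowest background of their list.

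The downstream site, the most widely called, was strongest in male misaligned ZT12. Its summit held 128 fragments over a background of 8.51 there, against 44 over 5.37 in male misaligned ZT0. In female misaligned livers it held 63 over 9.81 at ZT12 and 60 over 8.01 at ZT0. In male control livers it held 63 over 10.3 at ZT12 and 32 over 6.16 at ZT0. As strength these came to 28.1 (interval 23.1 to 33.8) in male misaligned ZT12, 8.93 (6.15 to 12.4) in male misaligned ZT0, 8.66 (6.29 to 11.5) in female misaligned ZT12 and 10.3 (7.46 to 13.7) in female misaligned ZT0. In male controls they were 12.0 (8.69 to 16.0) at ZT12 and 4.19 (2.55 to 6.33) at ZT0. The interval of male misaligned ZT12 lay above the other 5, and the intervals of the 2 female misaligned libraries overlapped.

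The promoter site was strongest in female misaligned ZT0. It had 73 summit fragments over a background of 10.6 in male misaligned ZT12, 55 over 10.8 in male misaligned ZT0, 84 over 7.59 in female misaligned ZT0 and 41 over 6.16 in male control ZT0. In the same order the strength was 14.7 (10.9 to 19.1), 10.2 (7.08 to 14.1), 15.1 (11.7 to 19.1) and 5.65 (3.77 to 8.03). The 3 misaligned values overlapped in their intervals. Male control ZT0 was the lowest by strength, and male misaligned ZT0 by fragments over local background (5.08) and by fold enrichment (4.74). The upstream site was the weakest, with 39 fragments and a strength of 7.33 (4.69 to 10.7) in male misaligned ZT12, and 23 fragments and 3.86 (1.91 to 6.52) in male misaligned ZT0.

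**Figure D2:**
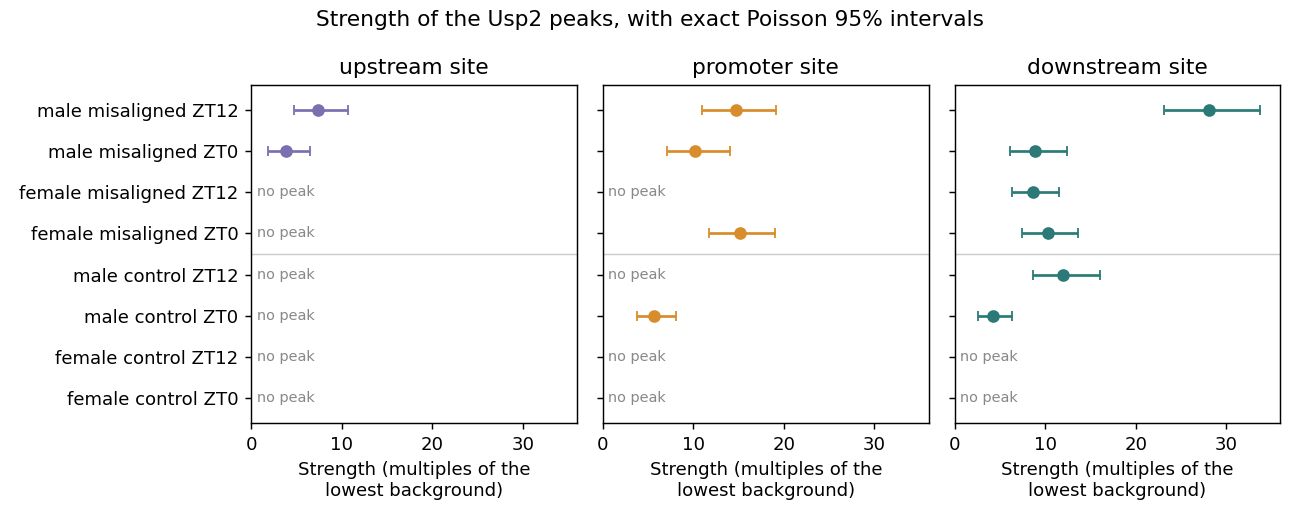
Strength of each Usp2 peak, as summit fragments above local background in multiples of the lowest background of the list, by site and library. Points are single libraries and bars exact Poisson 95% intervals (counting error only). The downstream site reaches 28.1 in male misaligned ZT12 and is at or below 12.0 in the other 5 libraries that have it.

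Misaligned and control livers were set side by side in 4 pairs of the same sex and time. No Usp2 site was called in a control library and not in its misaligned partner, which held 0.895% of all intervals in males at ZT12, 1.42% in males at ZT0, 0.965% in females at ZT12 and 1.95% in females at ZT0. In males at ZT12, 2 sites were called in the misaligned library alone, a category that held 75.5% of all intervals, and the downstream site in both (3.17%). In males at ZT0, the upstream site was called in the misaligned library alone (22.6% of all intervals), and the other 2 sites in both (3.79%). In females, 1 site at ZT12 and 2 sites at ZT0 were called in the misaligned library alone (2.09% and 17.6% of all intervals), and none in both libraries (0.994% and 1.22%). Both libraries of a pair had a peak in 3 cases. The ratio of misaligned to control strength was 2.34 for the downstream site in males at ZT12, 2.13 for it in males at ZT0 and 1.81 for the promoter site in males at ZT0. The Poisson intervals of the downstream site at ZT12 were apart, those at ZT0 overlapped slightly, and those of the promoter site at ZT0 also overlapped slightly. The direction at the promoter site depended on the measure: its summit fragments were 5.08 times the local background in male misaligned ZT0 and 6.65 times in male control ZT0, a ratio of 0.764, and fold enrichment was likewise lower in the misaligned library (4.74 against 5.86). At the downstream site the same ratio was 2.45 at ZT12 and 1.58 at ZT0.

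An absent call is not a strength of 0. The weakest peak in the female control lists had a strength of 2.50 at both ZT12 and ZT0, and the lowest number of summit fragments of any peak was 20 at ZT12 and 17 at ZT0, so nothing weaker was listed there. These are the lowest values over each whole list. The limit at the Usp2 sites may be higher, since their background in the female control libraries is unknown. The weakest values of the other 6 lists were 2.26 to 2.65, below each Usp2 strength given above.

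The times were also set side by side. At the downstream site the strength at ZT12 was 3.14 times that at ZT0 in male misaligned livers, 2.87 times in male control livers and 0.843 times in female misaligned livers. By fragments over local background the same ratios were smaller in males, 1.84 in misaligned and 1.18 in control livers, and 0.857 in female misaligned livers. At the promoter site, male misaligned livers had a ratio of 1.43. The other groups with a promoter peak had it at ZT0 and not at ZT12: the female misaligned ZT12 and male control ZT12 lists have the downstream peak alone. In those lists, peaks with a background within 0.8 to 1.2 times that of the downstream peak had at least 25 summit fragments (92 peaks, female misaligned ZT12) and 27 (47 peaks, male control ZT12), so no listed peak of such background had fewer. The background at the promoter site is unknown in those lists, so its own limit may differ. Promoter and downstream backgrounds were 10.8 and 5.37 in male misaligned ZT0, and 7.59 and 8.01 in female misaligned ZT0.

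The balance of the downstream and promoter sites within 1 library needs no scaling between libraries. Of the fragments at both summits, the downstream site held 63.7% in male misaligned ZT12 (exact Clopper-Pearson 95% interval 56.6 to 70.3, 128 of 201). It held 44.4% in male misaligned ZT0 (34.5 to 54.8, 44 of 99), 41.7% in female misaligned ZT0 (33.5 to 50.2, 60 of 144) and 43.8% in male control ZT0 (32.2 to 55.9, 32 of 73). The intervals of the 3 ZT0 libraries overlapped, and that of the 1 ZT12 library that has both peaks lay above all 3. These fragments include the local background. When each summit was divided by its background, the downstream to promoter ratio was 2.19 in male misaligned ZT12, 1.61 in male misaligned ZT0, 0.677 in female misaligned ZT0 and 0.780 in male control ZT0, so the ZT0 libraries then stood apart. The order of the sites in male misaligned ZT0 depended on the measure. There the downstream site had 44 fragments over a background of 5.37, against 55 over 10.8 at the promoter site, and it had the higher -log10 q (20.5 against 16.7) and fold enrichment (7.06 against 4.74).

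Within each list, the Usp2 peaks were ordered by -log10 q, which the authors' peak caller gave. The downstream peak ranked 47 of 5542 in male misaligned ZT12 (-log10 q 96.0, fold enrichment 13.6) and 147 of 1864 in male misaligned ZT0. In females it ranked 46 of 221 in misaligned ZT12 (24.4, 5.92) and 116 of 1330 in misaligned ZT0 (26.9, 6.77). In male controls it ranked 82 of 290 at ZT12 (23.6, 5.68) and 228 of 373 at ZT0 (8.66, 4.61). The promoter peak ranked 352 in male misaligned ZT12 (31.5, 6.36), 209 in male misaligned ZT0, 40 of 1330 in female misaligned ZT0 (51.4, 9.89) and 116 of 373 in male control ZT0 (15.5, 5.86). The upstream peak ranked 1309 in male misaligned ZT12 (11.5, 4.55) and 1325 in male misaligned ZT0 (3.30, 3.28). As a share of the list the best Usp2 peak stood at 0.848%, 7.89%, 20.8% and 3.01% in the 4 misaligned libraries, in the order male ZT12, male ZT0, female ZT12 and female ZT0. It stood at 28.3% in male control ZT12 and 31.1% in male control ZT0. The best peak was the promoter peak in female misaligned ZT0 and male control ZT0, and the downstream peak elsewhere. In those 2 libraries the downstream peak stood at 8.72% and 61.1%. These shares also move with the number of weak peaks in a list, so they are not levels of binding.

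**Figure D3:**
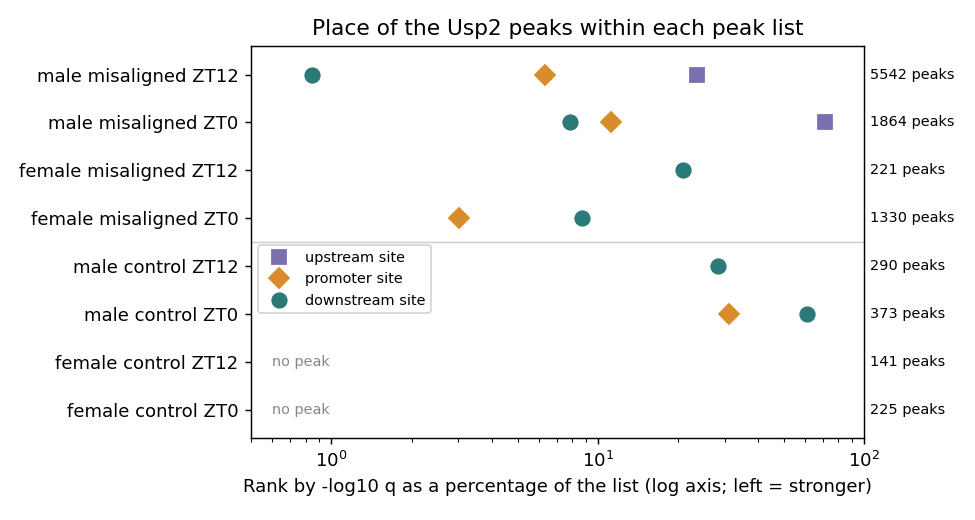
Rank of each Usp2 peak by -log10 q, as a percentage of its list on a log axis (left is stronger), with the length of each list at the right. The downstream peak of male misaligned ZT12 stands at 0.848% of 5542 peaks, and the male control peaks stand between 28.3% and 61.1% of theirs.

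No other interval lay close to the 3 sites. Within 250 kb on either side, where RefSeq has 16 protein-coding genes, the table held 2 other intervals, at the starts of Hinfp (chr9:44305440-44305873, a histone gene regulator) and C2cd2l (chr9:44320871-44321164). Both were called in male misaligned ZT12 alone, with a -log10 q of 12.1 and 8.97. The nearer one was 218830 bp from the downstream site. The neighbouring protein-coding genes, Thy1 at 18442 bp to the left of Usp2 and C1qtnf5 at 6143 bp to the right, were given no interval within that window.

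Usp2 was called, at any of its sites, in 6 libraries, and 16 of the other 5526 genes in the table had the same calls in all 8 libraries. Likeness among them was measured by the mean absolute difference in the rank of the strongest peak, as a percentage of the list, over the 6 libraries with a call. The closest was Hmgn2, a nucleosome-binding protein gene, at 2.57 percentage points. Next came Asap1 (4.32), an Arf GTPase-activating protein gene whose interval lay at -221454 bp from its start, and Tns2 (4.99), the gene of the focal adhesion protein tensin. Klf11 (5.47) and Ppara (6.82), the gene of the nuclear receptor that drives fatty acid oxidation, followed. In male misaligned ZT12 the rank of Usp2 was 0.848% of the list, against 0.325% for Hmgn2 and 5.70% for Ppara. All 6 genes come from the same libraries and so share each list's length and depth, and the 5 were picked by these same ranks.

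**Figure D4:**
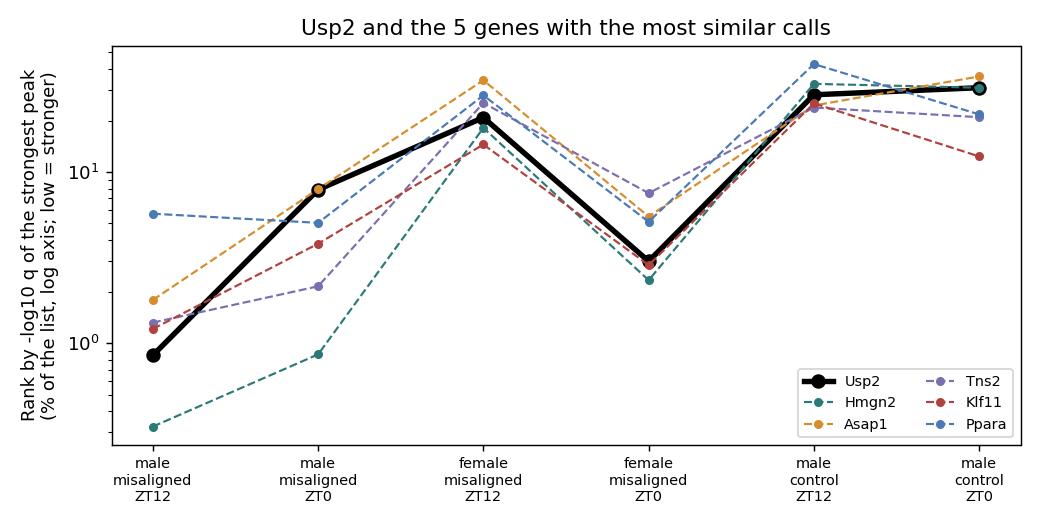
Rank of the strongest peak by -log10 q, as a percentage of the list on a log axis (low is stronger), for Usp2 (black) and the 5 genes of most similar calls, in the 6 libraries where all are called. The ranks of Usp2 run from 0.848% to 31.1%, and each gene stands lower on the axis in the male misaligned libraries than in the male control ones. The 5 genes were picked for ranks close to those of Usp2, so their shared order is no separate result. The male misaligned lists are also longer (5542 and 1864 peaks, against 290 and 373). The strongest Usp2 peak is the promoter peak in female misaligned ZT0 and male control ZT0, and the downstream peak elsewhere.

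Of the 54 other genes of the ubiquitin-specific protease family, 9 had an interval within 10 kb of the authors' start in at least 1 library (16.7%, against 11.1% of 21900 RefSeq protein-coding genes). The count was 8 in male misaligned ZT12 (8.9% of protein-coding genes were called) and 4 in male misaligned ZT0 (3.52%). In females it was 0 in misaligned ZT12 (0.457%) and 5 in misaligned ZT0 (2.94%). It was 1 in male control ZT12 (0.484%), 4 in male control ZT0 (0.804%), 2 in female control ZT12 (0.242%) and 1 in female control ZT0 (0.411%). Usp53, of a protein of tight junctions, had a -log10 q of up to 46.6 within 10 kb, in male misaligned ZT12, and Usp36, of a nucleolar protease, up to 40.8, in male misaligned ZT0. A second Usp36 interval, farther than 10 kb from the start, reached 76.2 in male misaligned ZT12. Usp28, of a protease that stabilises MYC, stood at up to 38.1, in male misaligned ZT12. Usp22, of the protease of the SAGA coactivator complex, followed at 19.8, Usp37, of a cell cycle protease, at 8.07, and Usp16, of a histone H2A protease, at 7.40, each in male misaligned ZT12. Usp28 was called in 7 libraries, all but female misaligned ZT12. Intervals of Usp22, Usp36 and Usp53 had the calls of the Usp2 promoter site, in the same 4 libraries. Among the other members only Usp28 was called in female control ZT0, and Usp2 was the only member of the family called in female misaligned ZT12.

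Of 12 genes whose protein is a reported USP2 substrate or works in a process ascribed to USP2, 5 had an interval within 10 kb in at least 1 library (41.7%, against 11.1% of all protein-coding genes). The list holds 3 core clock genes, Per1, Cry1 and Arntl, and was chosen with earlier results of these data known. The 41.7% was therefore not tested and cannot be read as an excess. The clock repressors Per1 and Cry1 had one in all 8 libraries, including the female control libraries that lack Usp2. In male misaligned ZT12 the highest -log10 q was 96.0 for Usp2, against 335.7 for Per1 and 199.6 for Cry1. In female control ZT12 it was 81.7 for Per1 and 23.6 for Cry1. Ccnd1, of cyclin D1, had one in 2 libraries, male misaligned ZT12 and female misaligned ZT0 (up to 3.09), and its highest -log10 q, 24.6, was at an interval just beyond 10 kb. Hsd11b1, of the enzyme that regenerates active glucocorticoid in liver, had one in male misaligned ZT12 alone (8.83), as had Nr3c2, of the mineralocorticoid receptor (2.40). Arntl, Mdm2, Mdm4, Fasn, Scnn1a, Egfr and Trp53 had none.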

How the data were processed

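The authors used BWA 0.7.17-r1188, MACS2 2.2.7.1 and the build GRCm38, per the submitters' processing notes. The q threshold, effective genome size and use of the IgG libraries are not given in the sources used here. The deposited lists, 1 per BMAL1 library, hold values made by the authors' peak caller: the fold enrichment at the summit (a ratio), its -log10 p, its -log10 q, and a score that in nearly all peaks equals -log10 q multiplied by 10 with decimals dropped. The lowest -log10 q in a list was 1.30 to 1.42. The authors' merged table gives a true or false call per library, whose calls at Usp2 matched peaks overlapping by at least 1 bp.

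Summit fragments k and background b were recovered as the whole k for which (k + 1)/(b + 1) is the fold enrichment and the Poisson upper tail gives -log10 p within a relative 0.0001. This succeeded for 99.1% to 100% of each list and was tested on simulated data. Python 3.11.15, SciPy 1.17.1 and pandas 2.3.3 were used. No test was run, as each group had 1 library. The members and gene lists were chosen with earlier results of these data known. The genes named were Usp2, those given to intervals within 250 kb, the 6 other family members of highest -log10 q, all substrates and partners, and the 5 genes of most similar calls. Klf11 among these was shown after its sequence was seen. All 55 family symbols were in RefSeq. Alternatives were a -log10 q of at least 3, distances of 10 kb and 1 kb, overlap of 50% of both peaks, ordering by fold enrichment, chromosomes 1 to 19, X and Y, leaving out high background, other scalings of strength and a 1 Mb window.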

Additional observations from a re-analysis of the deposited data

Results flagged for a closer look

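At the downstream site of Usp2 the difference between times ran in opposite directions in misaligned males and females. The log2 ratio of strength, ZT12 over ZT0, was 1.65 in male misaligned livers and -0.25 in female misaligned livers, with 1 library at each time. By fragments over local background the same values were 0.88 and -0.22. The difference between the sexes was not tested. The Poisson intervals of the 2 female libraries overlapped and those of the 2 male libraries did not. The female lists held 221 peaks at ZT12 and 1330 at ZT0, and the male lists 5542 and 1864, and the part of list length in this was not tested.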

How the results depend on the processing

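Usp2 was called in 6 libraries at -log10 q of at least 3 and within 10 kb of the authors' start, and in 0 within 1 kb of it. By the RefSeq start, an alternative added after seeing the data, intervals centred within 1 kb were called in 4. Of the 12 calls, 10 overlapped another library's peak by at least 50% of both peaks, and the 2 that did not were both calls of the upstream site. The downstream site was stronger than the promoter site in 1 of the 4 libraries with both, and in 2 when fragments were divided by the local background. The strength of the downstream site in male misaligned ZT12 was 3.14 times the median of the other 5 libraries, 2.34 times by that ratio and 2.89 times with the median background as the scale. By fragments over local background the misaligned to control ratio of the promoter site in males at ZT0 was 0.764, against 1.81 by strength, and the ZT12 to ZT0 ratio of the downstream site moved to 1.84 in male misaligned and 1.18 in male control livers. Ordering by fold enrichment moved 7 of the 12 ranks beyond their binomial interval, while the chromosome filter and leaving out high background moved none. That interval is a yardstick that narrows with list length, and it measures no error of a rank in a complete list. The median rank stayed between 15.2% and 17.6% of the list. With a 1 Mb window, 13 other intervals lay near Usp2, against 2. Family members numbered 10 with Usp2 included, and 7 within 1 kb and 11 at any distance. The share of all protein-coding genes is given here for 10 kb alone, so the other 2 counts have none beside them. Genes with the calls of Usp2 numbered 14 within 10 kb. The 4 matched pairs of misaligned and control libraries were described and not tested, since the sites were chosen by having a peak. Read depth and replicate error are unknown.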
